A study of Arabidopsis thaliana with 4 samples.

Results

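In cold-treated Arabidopsis seedlings, 105 genes were at least 2-fold lower in both mutant alleles of SFR6 than in the wild type treated beside each allele. They were chosen by these ratios from 7204 genes with a usable signal. A gene entered when the log2 value of the mutant minus that of its own Col-0 was at or below -1 in both experiments. Before exclusions 115 genes met this rule. COR15A, LTI30, STZ, SAG29, PDF1.2, AT1G48100, AT3G17130 and the glycosyltransferase UGT72B3, the beta-glucosidase BGLU46 and the expansin-like EXLA2 were left out. No chloroplast-encoded gene and no gene with a cytochrome P450 symbol met the rule. Families were recognised by symbol and synonym only, so genes with only a locus tag, such as AT3G44970, were kept whatever their family. Genes of the excluded families, cytochromes P450 among them, may therefore remain among the 105.

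SFR6 is one of the subunits of Mediator, which passes signals from DNA-bound transcription factors to RNA polymerase II. Mutants of SFR6 fail to acclimate fully to cold, a process in which plants exposed to low temperature build up protective proteins, sugars and altered membrane lipids before frost. Many cold-induced genes are switched on through transcription factors of the CBF family, which act with Mediator at their targets.

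The study used 4 single-colour Affymetrix arrays, each of total RNA from whole 7-day-old seedlings kept at 5 °C for 6 h in the light. In one experiment sfr6-3 (WiscDsLox504A08) was set beside Col-0, and in the other sfr6-2 (SALK_048091) was set beside a second Col-0 sample. Both names are those of insertion collections, and 1 line stands for each allele. All 4 samples had been in the cold, so a level before the cold and a response to it cannot be told apart. Each line was measured once per experiment. Nothing says how many plants were pooled and so few arrays limit how precise any value can be.

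In the annotation used, 0 probe sets read SFR6 alone, so its own level gave no check of the labels. The 4 arrays had been scaled to the same mean, and the median gene stood at a log2 ratio of 0.11 in sfr6-3 and 0.08 in sfr6-2. Markers of both shoot and root were measured, as whole seedlings should hold. The summed linear signal of 3 shoot and leaf genes (RCA, LHCB4.2 and PRK, of 6 listed) was 60656 in wild type against 47279 in sfr6-3, and 74182 in wild type against 65550 in sfr6-2. For 4 of 8 root and root hair genes (EXPA7, EXPA18, AT3G01190 and AT5G17820) it was 1292 in wild type against 2771 in sfr6-3, and 3228 in wild type against 3598 in sfr6-2. Of 3 guard cell genes, 2 were measured, with sums of 2903 in wild type against 1700 in sfr6-3, and 3047 in wild type against 2690 in sfr6-2. Of 2 pollen genes the 1 measured, AT1G13970, was dim, at linear signals from 44 to 123. Of 6 seed genes 0 were found in the annotation used. The shoot and guard cell sums were thus lower, and the root sum higher, in both mutants. The shoot genes did not all change alike. In sfr6-3 and sfr6-2 the log2 ratios were -0.10 and 0.05 for RCA, -0.98 and -0.27 for LHCB4.2, and -0.48 and -0.47 for PRK. The part of tissue makeup in the ratios below was not tested. Fewer cells of a type and less RNA per cell cannot be told apart in whole seedlings.

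Because the ratios chose the genes, their size is described here without a test. In the sfr6-3 experiment the median of the 105 genes was 10.05 in Col-0 and 8.29 in the mutant, on the log2 scale of expression values. In the sfr6-2 experiment the medians were 10.21 and 8.54. The median gene was 3.10-fold lower in sfr6-3 and 3.01-fold lower in sfr6-2. Log2 ratios ran from -3.33 to -1.003 in sfr6-3 and from -4.31 to -1.005 in sfr6-2. Of all genes tested, 3.85% were at least 2-fold lower in sfr6-3, 3.58% in sfr6-2 and 1.60% in both, the last being the share from which the 105 come.

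**Figure D1:**
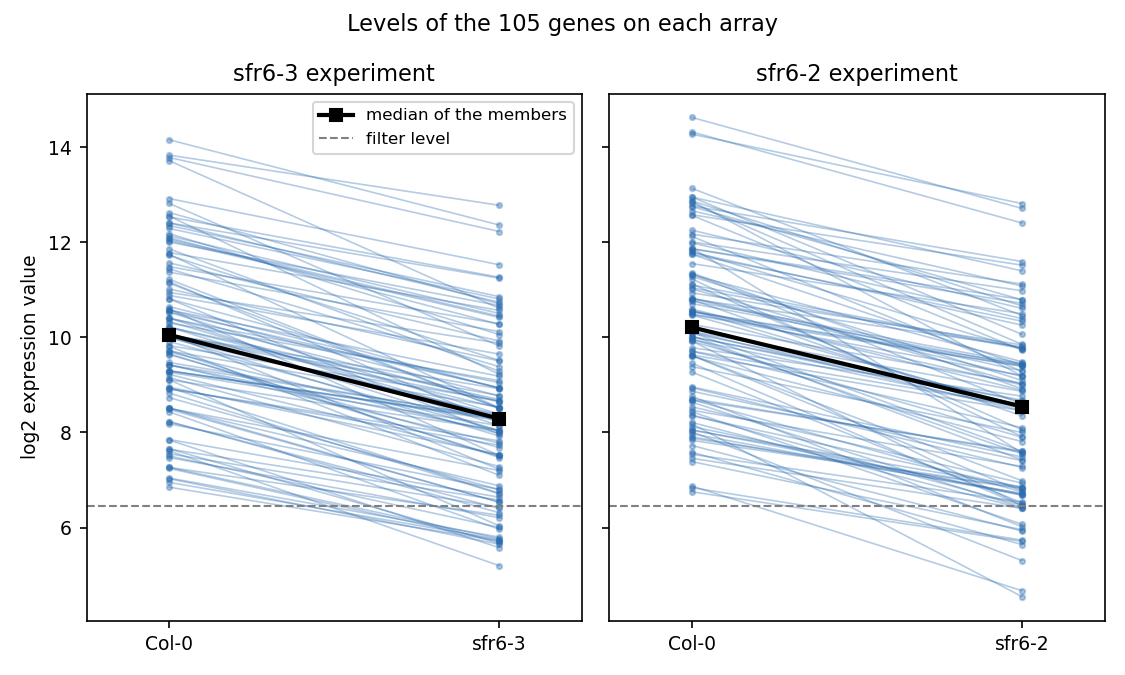
Log2 expression values of the 105 genes (blue lines) in Col-0 and mutant, with the sfr6-3 experiment on the left and the sfr6-2 experiment on the right; black squares are medians and the dashed line is the filter level of 6.46. The medians go from 10.05 to 8.29 and from 10.21 to 8.54, and every line slopes down because the rule required it.

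The gene table names 9 of the 105 genes beyond a locus tag, and these are taken first, by role. The other 96 are known here by locus tag only, and no role is given to them.

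Of the 9 members with a name, a single one has that of a transcription factor. Whether any of the other 96 encodes one was not examined. TINY, listed as tny, is an AP2/ERF protein of the DREB group, which binds the same kind of element as the CBF proteins. On the log2 scale it read 8.83 in wild type against 6.71 in sfr6-3, and 9.97 in wild type against 7.55 in sfr6-2. Both mutant arrays lay under both Col-0 arrays, and the mean log2 ratio was -2.27 ± 0.22 (SD over 2 alleles). It was 1 of 18 members that were at least 4-fold lower in both alleles.

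Stress proteins are represented by LEA4-5 and SIS. LEA4-5, a late embryogenesis abundant protein of group 4 that builds up when tissues lose water, read 8.23 in wild type against 6.31 in sfr6-3, and 9.95 in wild type against 8.50 in sfr6-2. The sfr6-2 seedlings therefore held more of its signal than the Col-0 seedlings of the other experiment, and the groups overlapped. Its ratios were -1.92 and -1.44. SIS, annotated as Salt Induced Serine rich, read 10.59 in wild type against 7.52 in sfr6-3, and 8.37 in wild type against 6.47 in sfr6-2. Both mutants lay under both Col-0 arrays, although the Col-0 arrays were themselves far apart. The SIS ratio was -3.08 in sfr6-3, or 8.43-fold lower, and -1.90 in sfr6-2, or 3.73-fold lower.

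Membrane lipid synthesis is represented by CCT2, the enzyme that makes the activated choline that goes into phosphatidylcholine. CCT2 read 10.64 in wild type against 8.93 in sfr6-3, and 11.34 in wild type against 8.59 in sfr6-2. The arrays of the 2 genotypes did not overlap. The ratio was -1.71 in sfr6-3 and -2.74 in sfr6-2.

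SERPIN1 and ATSBT5.2 act in proteolysis, the first as a protease inhibitor of the serpin fold and the second as a subtilisin-like serine protease. SERPIN1 read 11.56 in wild type against 9.92 in sfr6-3, and 13.13 in wild type against 10.46 in sfr6-2. ATSBT5.2 read 7.47 in wild type against 6.21 in sfr6-3, and 7.88 in wild type against 6.83 in sfr6-2. Neither gene's groups overlapped, and the inhibitor had the larger mean ratio, at -2.16 ± 0.73 against -1.15 ± 0.16 (SD over 2 alleles). The sfr6-3 value of ATSBT5.2 lay under the filter level, where signals are dim. Of 10 subtilases found by name, which need not be the whole family, 6 passed the filter. Among these 6 ATSBT5.2 alone was at least 2-fold lower in both alleles. The median mean ratio of the 6 was 0.27, against 0.10 over all genes, and its highest gene, SBT4.12, stood at 0.85.

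AT5G64120, annotated as peroxidase 71, belongs to the class III peroxidases, secreted enzymes that act on hydrogen peroxide and cell wall polymers. It read 10.41 in wild type against 8.65 in sfr6-3, and 10.76 in wild type against 9.45 in sfr6-2, with no overlap between genotypes. A search by name found 6 class III peroxidases, which are not the whole family on the array, and 4 passed the filter. The other 3 of these were not 2-fold lower in both alleles. Their mean log2 ratios were 0.92 for AT5G66390, 0.69 for Prx37 and -0.08 for AT2G41480. The root genes AT3G01190 and AT5G17820, summed above, are peroxidases that this search did not find.

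JAL33, a jacalin-related lectin, binds sugars. It read 12.41 in wild type against 10.74 in sfr6-3, and 12.57 in wild type against 11.52 in sfr6-2. The 2 Col-0 values lay close together and above both mutants. Of 4 lectins of this family found by name 3 passed the filter. The other 2 of these had mean log2 ratios near 0, at 0.13 for JAL34 and -0.01 for JAL22. ZW9, named without a stated role, read 12.40 in wild type against 11.24 in sfr6-3, and 11.86 in wild type against 10.71 in sfr6-2. Its ratios of -1.16 and -1.15 were among the most alike of all members.

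These values describe single genes, and none of the families was tested. A search by name found 7 late embryogenesis genes and dehydrins, of which 6 passed the filter, with a median mean ratio of 0.26. That median leaves out LTI30 and COR47, dehydrins the search did not find, at mean log2 ratios of -2.10 and -0.73. LEA4-5 was the 1 member among the 6, and the 1 gene found of 21 listed for the abscisic acid response. Of 17 listed genes of the CBF regulon 5 were found. COR15A and LTI30 met the rule and were left out, and COR15B, TIL and COR47 stood at mean log2 ratios of -1.32, -0.91 and -0.73. Of 14 listed sugar and raffinose genes the 1 found, SWEET11, stood at -0.15. The protein phosphatase PIA1, the 1 gene found under protein phosphatase 2C, stood at -0.40. A search for lipid transfer proteins by name found 0 genes. Listed genes that were not found may still lie on the array, among probe sets that the annotation does not name.

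**Figure D2:**
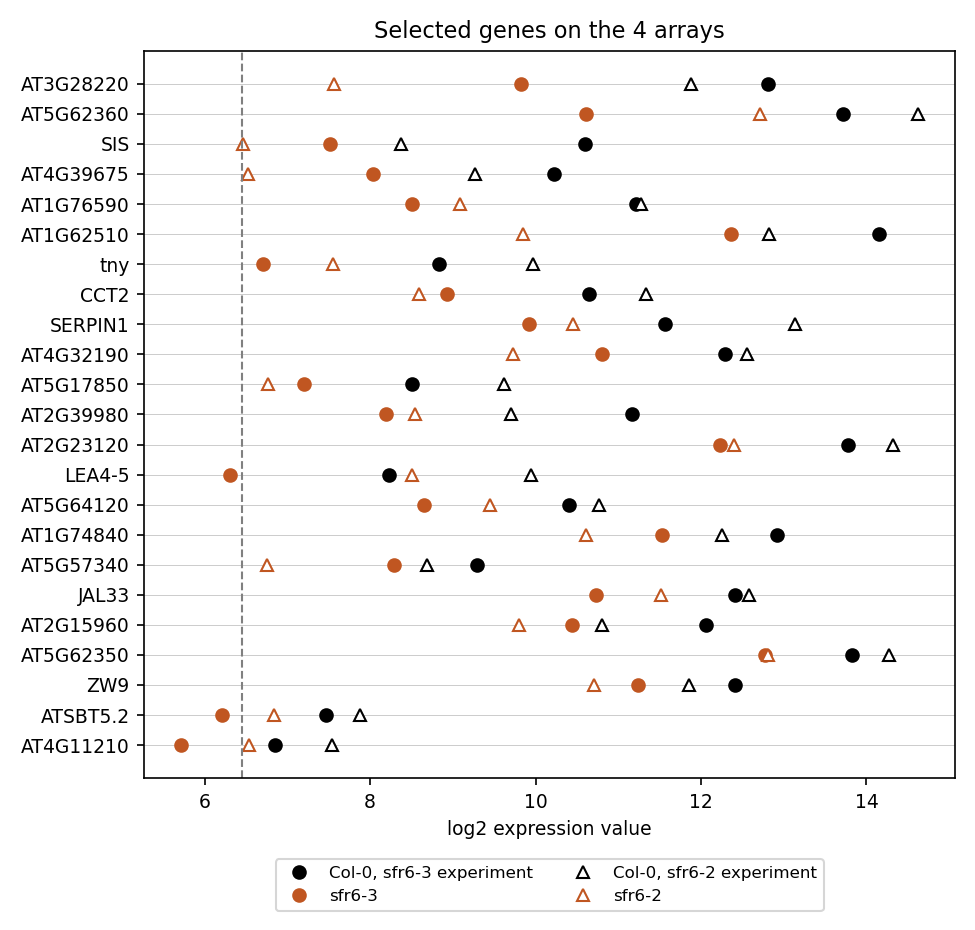
Log2 expression values on the 4 arrays for the genes described by name or by the naming rule, with Col-0 in black and mutants in orange, circles for the sfr6-3 experiment and open triangles for the sfr6-2 experiment; the dashed line is the filter level. LEA4-5 is the gene whose sfr6-2 value, 8.50, exceeds a Col-0 value, 8.23.

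Among the genes without a name, 10 had a mean log2 ratio at or below -2.5. They are AT3G28220, AT1G68500, AT1G16850, AT1G79660, AT5G13200, AT5G33370, AT1G67865, AT1G21790, AT1G51090 and AT5G62360. The first 9 of them belong to the 12 lowest genes before exclusions. Beyond these, AT5G62360 read 13.71 in wild type against 10.61 in sfr6-3, and 14.62 in wild type against 12.71 in sfr6-2. All 4 values lay far above the filter level, and the ratios were -3.11 and -1.91. In sfr6-3 this gene was lower by more than in sfr6-2, and both mutants lay under both Col-0 arrays.

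The next unnamed genes in order were AT4G39675, AT1G76590 and AT1G62510. AT4G39675 read 10.22 in wild type against 8.03 in sfr6-3, and 9.27 in wild type against 6.52 in sfr6-2. AT1G76590 read 11.22 in wild type against 8.51 in sfr6-3, and 11.28 in wild type against 9.09 in sfr6-2. In AT1G76590 the Col-0 arrays were nearly equal, and the mean log2 ratio was -2.45 ± 0.37 (SD over 2 alleles). AT1G62510 read 14.15 in wild type against 12.36 in sfr6-3, and 12.82 in wild type against 9.85 in sfr6-2. Its sfr6-3 value lay under the Col-0 value of the other experiment by less than its 2 Col-0 arrays differed.

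A further 19 unnamed genes shared with SIS, TINY, CCT2 and SERPIN1 the band of mean log2 ratios from -2.49 to -2.01. Apart from the 3 just given they are AT5G19875, AT5G24570, AT3G47380, AT5G59080, AT1G02660, AT5G44580, AT4G18280, AT3G22060, AT5G05600, AT4G32190, AT1G24575, AT5G17850, AT2G39980, AT4G36010, AT5G20790 and AT5G04250. The band holds 23 genes in all, and the weaker of the 2 ratios ran from -2.25 to -1.16 in it.

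Mean ratios from -1.98 to -1.51 were found for 28 genes. Besides LEA4-5 and AT5G64120 these are AT4G12000, AT1G16840, AT1G32780, AT5G54300, AT5G42570, AT5G55970, AT5G48540, AT2G23120, AT3G57760, AT5G62280, AT3G45260, AT3G47510, AT1G70900, AT3G55760, AT3G51750, AT4G30650, AT4G36500, AT3G45160, AT1G73480, AT3G04010, AT3G14560, AT1G27200, AT1G10410, AT1G64890, AT1G74840 and AT1G69760. AT2G23120, also far above the filter level, read 13.78 in wild type against 12.22 in sfr6-3, and 14.32 in wild type against 12.40 in sfr6-2. AT1G74840 read 12.92 in wild type against 11.53 in sfr6-3, and 12.25 in wild type against 10.61 in sfr6-2. Both genes had nearly parallel ratios in the alleles, with SDs of 0.25 and 0.18. AT5G62280 stood at -1.71 in sfr6-3 and -1.70 in sfr6-2.

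Another 28 genes had mean ratios from -1.49 to -1.26. With JAL33 these are AT5G52660, AT4G33550, AT2G36320, AT5G57340, AT1G20030, AT3G07350, AT2G34810, AT2G22080, AT3G53990, AT1G72060, AT4G33666, AT2G38870, AT5G63130, AT1G67860, AT1G76270, AT3G60520, AT2G38465, AT1G76580, AT1G53035, AT1G70420, AT1G75860, AT2G36220, AT3G44970, AT2G15960, AT1G66100, AT3G23170 and AT5G62350. The last 16 genes had mean ratios from -1.24 to -1.05. With ZW9 and ATSBT5.2 these are AT5G43150, AT4G29950, AT3G09540, AT5G17460, AT3G53960, AT4G35750, AT2G21180, AT1G10140, AT2G37870, AT2G23840, AT5G15190, AT4G16490, AT4G11210 and AT1G23850.

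At the threshold itself AT5G57340 at -1.003 in sfr6-3, AT4G11210 at -1.005 in sfr6-2 and AT2G15960 at -1.006 in sfr6-2 were the members with the weakest ratio. AT5G57340 read 9.29 in wild type against 8.29 in sfr6-3, and 8.69 in wild type against 6.75 in sfr6-2. AT2G15960 read 12.06 in wild type against 10.44 in sfr6-3, and 10.80 in wild type against 9.80 in sfr6-2. AT4G11210 read 6.85 in wild type against 5.72 in sfr6-3, and 7.54 in wild type against 6.54 in sfr6-2. Just outside were AT1G62770, at -1.17 and -0.999, RD2, at -0.996 and -1.25, and AT5G60680, at -0.993 and -1.29. Members and outsiders thus differed at the edge by far less than the alleles of 1 gene usually differ from each other, the median SD over alleles being 0.29.

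The ratios of the 2 alleles lay within 0.5 of each other on the log2 scale in 61 of the 105 genes and over 1 apart in 15. The ratio was lower in sfr6-3 for 50 genes and in sfr6-2 for 55. Both alleles were at least 4-fold lower in 18 genes, 1 allele in 25 and neither in 62. AT2G39980 differed most between alleles, reading 11.17 in wild type against 8.20 in sfr6-3, and 9.71 in wild type against 8.54 in sfr6-2. Here the mutants read alike and the Col-0 arrays differed. AT5G17850 leaned the other way, reading 8.51 in wild type against 7.20 in sfr6-3, and 9.62 in wild type against 6.76 in sfr6-2. AT4G32190 read 12.29 in wild type against 10.81 in sfr6-3, and 12.56 in wild type against 9.73 in sfr6-2. In AT4G32190 the Col-0 arrays were close and sfr6-2 was the lower mutant. AT3G28220, the lowest gene by mean ratio, read 12.81 in wild type against 9.82 in sfr6-3, and 11.88 in wild type against 7.57 in sfr6-2. With AT5G62360 these 4 are the 5 genes with the widest gap between alleles. With 1 array for each line and experiment, no difference between alleles could be tested.

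**Figure D3:**
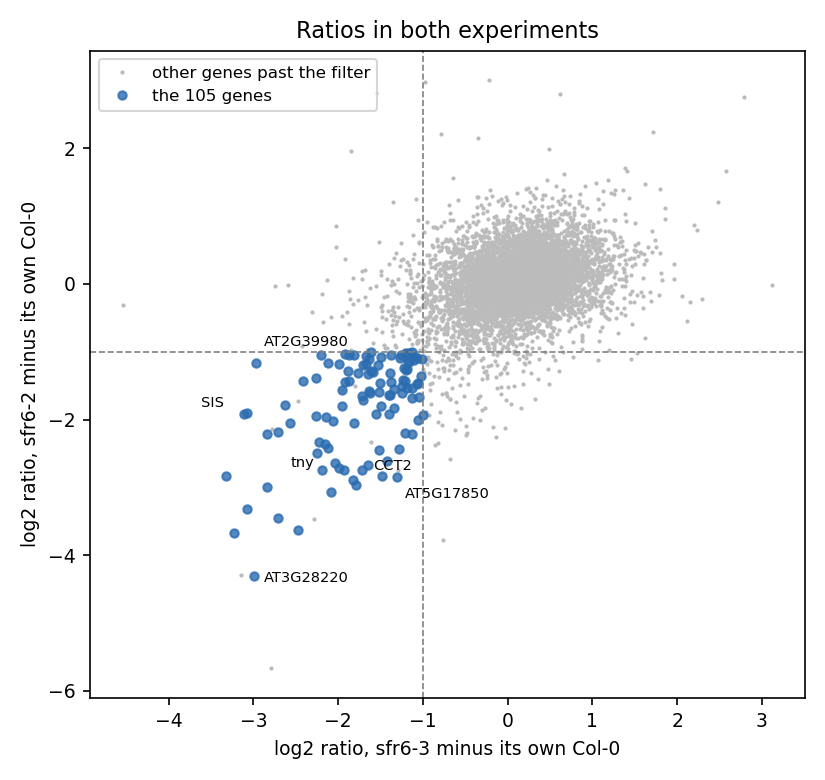
Log2 ratio of sfr6-3 to its own Col-0 (horizontal) against that of sfr6-2 to its own Col-0 (vertical) for 7204 genes; blue points are the 105 genes, dashed lines the threshold of -1. AT2G39980 lies far to the left and just under the horizontal line, at -2.97 and -1.16, and AT5G17850 the other way round, at -1.31 and -2.85.

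All 105 genes were above the filter level of 6.46 in both Col-0 arrays, while 21 were under it in at least 1 mutant, 17 in sfr6-3, 13 in sfr6-2 and 9 in both. The rule nearly fixes the Col-0 part, as it asks for a mean at the filter level and for lower mutants. For the 21 genes the true difference may be larger or smaller than the ratio says. With dim values raised to the filter level 95 of the 105 genes still had both ratios at or below -1. The 10 that did not are AT1G32780, AT3G57760, AT3G51750, AT1G72060, AT1G76270, AT2G38465, AT5G17460, AT2G37870, AT4G11210 and AT1G23850. Of 6151 genes under the filter, 330 others were 2-fold lower in both alleles and are not described.

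Both mutant arrays lay under both Col-0 arrays in 94 of the 105 genes. Over all genes this was so for 11.6%, and for the members the rule nearly fixes it. The other 11 had a mutant array at or above a Col-0 array of the other experiment. They are AT4G18280, AT4G36010, LEA4-5, AT1G20030, AT3G07350, AT4G33666, AT1G53035, AT1G70420, AT4G29950, AT3G53960 and AT4G35750.

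How far the level of each gene differed between the experiments is a different contrast from the ratios of the rule, made from the same values. The difference was tested with limma across all 7204 genes, with genotype as a term in the fit. The residual of this test is the gap between the ratios that chose the genes, so the shares below are not independent of the rule. Of the 105 genes 44 differed between the experiments at an adjusted p under 0.05, or 41.9%, against 10.7% of all genes tested. In 18 of them the sfr6-3 experiment had the higher level and in 26 the sfr6-2 experiment, where 6.40% and 4.32% of all genes did. In each of the 44 genes the Col-0 arrays and the mutant arrays differed in the same direction, which the test itself favours. Its estimate is the mean of the Col-0 and the mutant difference, and the gap between them enters the residual. The absolute difference had a median of 0.68 on the log2 scale among the members and 0.27 over all genes. Without the genotype term limma called 0 of the 105, with 11 at an unadjusted p under 0.05. For comparison, 5 of the 21 genes that were 2-fold higher in both alleles were called, or 23.8%. The difference between these shares was not tested.

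AT3G07350 differed most. It read 12.03 in wild type against 10.42 in sfr6-3, but 7.97 in wild type against 6.68 in sfr6-2. The sfr6-3 experiment was thus higher by 3.90 (SE 0.23, limma adjusted p = 4.33e-09) on the log2 scale, while the mutants stood at ratios of -1.61 and -1.29 to their own Col-0. With an array left out the mean ratio of AT3G07350 is unpaired, as a mutant is then also set against the Col-0 of the other experiment. So taken, it was 0.58 without the control of sfr6-3 and 0.42 without sfr6-2. AT4G35750 was higher in the sfr6-3 experiment by 1.96 (SE 0.20, limma adjusted p = 2.64e-06), AT1G62510 by 1.92 and AT4G33666 by 1.84. SIS was higher there by 1.64 (SE 0.28, limma adjusted p = 0.000536) and AT3G28220 by 1.59.

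In the other direction AT4G18280 led, reading 8.94 in wild type against 6.72 in sfr6-3, and 11.74 in wild type against 9.41 in sfr6-2. The log2 difference between experiments was -2.75 (SE 0.22, limma adjusted p = 1.99e-07). AT1G20030 read 9.91 in wild type against 8.04 in sfr6-3, and 12.17 in wild type against 11.12 in sfr6-2, a difference of -2.67 (SE 0.23, limma adjusted p = 3.79e-07). In both genes the sfr6-2 seedlings had more signal than the Col-0 seedlings of the sfr6-3 experiment. Without the sfr6-3 array, where sfr6-2 was set against the mean of both Col-0 arrays, the ratio of AT1G20030 was 0.0798. AT1G51090 differed by -2.38, AT4G36010 by -2.31, AT1G53035 by -2.14 and AT1G16850 by -1.999. Of the genes with a name, LEA4-5 differed by -1.95 (SE 0.25, limma adjusted p = 2.55e-05), SERPIN1 by -1.05 (limma adjusted p = 0.00512) and TINY by -0.99 (limma adjusted p = 0.011). CCT2, JAL33, ZW9, ATSBT5.2 and AT5G64120 did not pass, with differences between -0.58 and 0.54.

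These 6 genes in each direction were named after their values were seen. The fit left 1 residual degree of freedom for each gene, and 17.5 prior degrees of freedom came from all genes. An experiment here is everything that differed between the pairs of samples, and for the mutants it also holds the difference between alleles. In Col-0 alone, 36 of the 105 genes were at least 2-fold apart, or 34.3%, against 10.3% of all genes. Col-0 and the mutants were both at least 2-fold apart, the same way, in 20 of the 105, or 19.0%, against 4.14%.

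**Figure D4:**
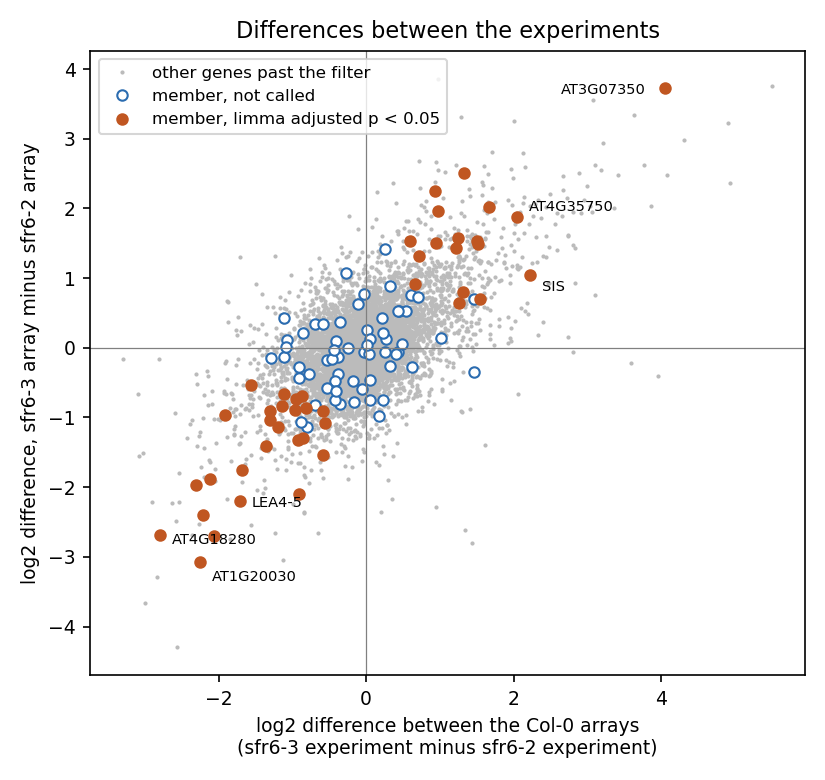
Log2 difference between the Col-0 arrays (horizontal) and between the mutant arrays (vertical), sfr6-3 experiment minus sfr6-2 experiment; filled orange points are the 44 members called by limma, open points the other 61, and grey points other genes. AT3G07350 lies at 4.06 and 3.73, and AT4G18280 at -2.80 and -2.69.

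Gene structure does not depend on the arrays, and is given here as a description with no test. In the RefSeq genes of assembly TAIR10.1, 104 of the 105 were found, all protein-coding, and AT1G67865 was not matched. The annotated span from start to end of the gene had a median of 1592 bp, with quartiles of 1011 and 2437 bp. For the 7121 genes of chromosomes 1 to 5 past the filter the median was 2361 bp, with quartiles of 1729 and 3272 bp. Spans under 1000 bp were found in 25 members, or 24.0%, and in 5.21% of all genes. Among the shortest were AT5G24570 with 452 bp, AT4G39675 with 466 bp and AT4G33666 with 488 bp, and the longest, AT1G76580, spanned 4761 bp. The 21 genes 2-fold higher in both alleles had a median span of 1903 bp. A single RefSeq transcript was listed for 66.3% of members and 51.8% of all genes. A symbol of their own was given to 7.69% and 13.9%.

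**Figure D5:**
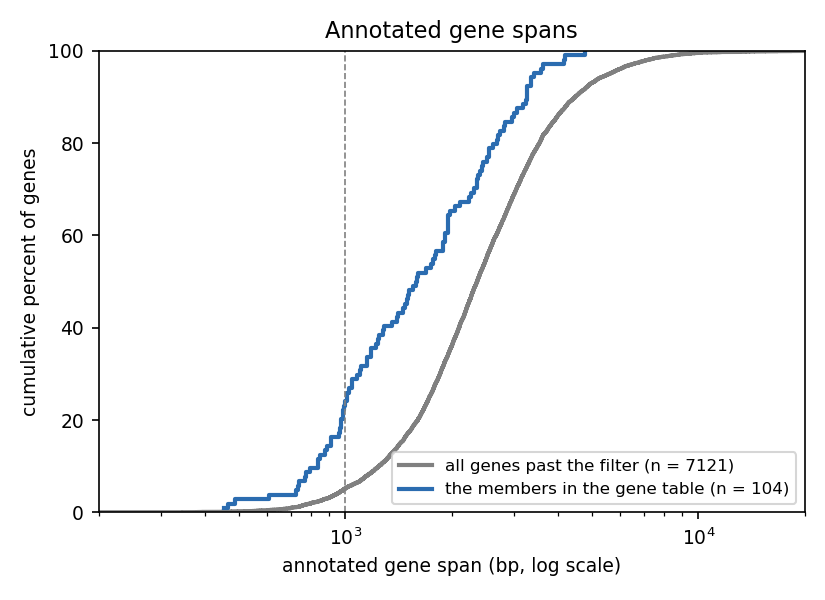
Cumulative percent of genes (vertical) by annotated gene span in base pairs (horizontal, log scale), for the 104 members in the gene table (blue) and all 7121 genes past the filter (grey). At the dashed line of 1000 bp the curves stand at 24.0% and 5.21%.

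Direct neighbours among protein-coding genes were AT1G16840 with AT1G16850, AT1G76580 with AT1G76590, and AT5G62350 with AT5G62360. They were the 3 adjacent pairs that met the rule among 2107 adjacent pairs with both genes placed in the gene table and past the filter. AT1G67865 was not placed, so whether it adjoins AT1G67860, another member, could not be told. AT5G62350 read 13.83 in wild type against 12.77 in sfr6-3, and 14.27 in wild type against 12.81 in sfr6-2, against a larger ratio in sfr6-3 for its neighbour AT5G62360. AT1G16840 read 10.57 in wild type against 8.77 in sfr6-3, and 10.56 in wild type against 8.51 in sfr6-2. Its neighbour AT1G16850 read 9.11 in wild type against 6.03 in sfr6-3, and 11.23 in wild type against 7.91 in sfr6-2. The Col-0 arrays were alike for the first gene of that pair and differed by -2.12 for the second. AT1G76580 read 9.30 in wild type against 8.25 in sfr6-3, and 10.21 in wild type against 8.53 in sfr6-2, a smaller ratio in both alleles than that of AT1G76590.

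Beyond these pairs the genes next to the members stood near the middle of all genes. The 53 measured direct neighbours that were not 2-fold lower had a median mean log2 ratio of 0.10, and 49.1% of them lay under the median of all genes. Counting places in either direction, 6 of 59 measured direct neighbours met the rule (each pair counted from both sides), 0 of 47 at the second place, 2 of 57 at the third, 1 of 57 at the fourth and 0 of 59 at the fifth. Over all genes past the filter 1.60% met it, and the counts beyond the direct neighbours are too small to set against that share. The pair at the third place is AT3G53960 with AT3G53990, and at the fourth place AT5G13200 stands near SAG29, which was left out by name. Whether any neighbouring probe sets share signal was not tested. Each member was read by 1 single-gene probe set, of the type designed against a single transcript.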

How the data were processed

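The deposited values are log2 expression values that the authors made with MAS5 and affy 1.36.1, per the submitters' processing notes; each array's linear values had a 2% trimmed mean of 500, so arrays had been scaled singly, and no further normalization was applied. Array controls (64 of 22810 probe sets) were left out. By the platform annotation 13513 probe sets read 1 gene and 503 read several, and 8730 were unnamed; symbols of 13436 were updated through the TAIR10.1 gene table. The brightest probe set stood for each of 13355 genes, and genes whose mean reached the 40th percentile of probe sets, 6.46, were kept. Families left out were recognised by symbol or synonym.

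Ratios chose the genes and were not tested. Differences between experiments were fitted with limma 3.58.1 in R 4.3.3 (genotype as a term, variance trend, Benjamini-Hochberg at 0.05, two-sided). On simulated data over 7204 genes with 200 changed, 74.0% of 2-fold and 100% of 4-fold differences between experiments were recovered, and 6.95% of calls were false. The simulation set noise by expression level alone and gave both alleles the same genotype effect. Its rates may therefore not hold for the real arrays. Since no line was repeated within an experiment, p-values set each difference against the gap between the mutant ratios, pooled with that of other genes. That gap also holds any difference between alleles. Nothing states separate cultures, so the rest of it may be technical. Members and lists were chosen with earlier results of these data known. Named genes are members with a name, the 4 lowest unnamed beyond the 12 lowest, the 5 widest between alleles, the 3 nearest the threshold on either side and the 5 brightest.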

Additional observations from a re-analysis of the deposited data

Results flagged for a closer look

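Probe sets that the annotation pairs with no gene or with several genes were outside every comparison. Of 6367 such probe sets past the filter, 107 were at least 2-fold lower in both alleles, or 1.68%, close to the 1.60% among named genes, and 35 were at least 2-fold higher. About as many probe sets as the members described here therefore met the same rule without a single gene to their name.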

How the results depend on the processing

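The number of genes lower in both alleles, 105, was 435 without the filter, 248 at 1.5-fold, 34 at 3-fold and 63 with the controls exchanged between experiments, of which 52 were members. Leaving out 1 array gave 128 to 258 genes, the rule then resting on 1 Col-0 array or 1 allele. With only the control of sfr6-2 used for both alleles 83 members remained, and with only that of sfr6-3, 74 of the then 158. Quantile normalization, cyclic loess and median centring kept 102, 104 and all 105 members.

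Genes that differ between the experiments numbered 772, against 462 after median centring, 409 without the filter, 409 with a filter at the 60th percentile and 54 without the genotype term. Members among them numbered 31 to 44, with the exception of limma without the genotype term, which called 0 members, with 11 at an unadjusted p under 0.05; there the genotype difference enters the residual by construction. Leaving out an array left no residual degree of freedom for this test.

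Leaving out 1 array turned 2 ratios of named genes. AT1G20030 ranged from -3.001 to 0.0798, highest without sfr6-3. AT3G07350 ranged from -3.48 to 0.58, highest without the control of sfr6-3, and was 0.42 without sfr6-2. The other named genes stayed below 0. Closest to it came AT4G35750, from -2.20 to -0.158, AT1G53035, from -2.51 to -0.199, and AT4G33666, from -2.44 to -0.417. For each array left out, 19 or 20 further named genes moved by more than the SD over alleles. Shares of promoter motifs, planned with their alternatives, were not run. The labels pair each mutant with its own Col-0 sample. The main ratios and the limma fit with genotype and experiment terms use that pairing. Mean ratios with an array left out, and counts with controls exchanged or shared, do not.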
